A study of Homo sapiens with 12 samples.

Results

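The small RNAs described here are the guide RNAs whose platform gene symbol starts with SCARNA or SNORA followed by a number. The array carries 126 probes for them, 24 SCARNA and 102 SNORA. A probe was kept where its deposited detection p-value, which sets the probe's signal against negative control beads, was under 0.05 on 3 or more of the 12 arrays. This left 80 probes for 79 guide RNA genes, with 17 SCARNA and 63 SNORA probes, among 22260 probes kept of 47313 on the array. SNORA73B has 2 probes among them.

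H/ACA guide RNAs fold into hairpins that pair with a target RNA and place a uridine in the active site of the pseudouridine synthase DKC1, which acts together with NHP2, NOP10 and GAR1. The SNORA guides work in the nucleolus, mostly on ribosomal RNA, and the SCARNA guides in Cajal bodies, where they direct the modification of spliceosomal RNAs. In human cells most of these RNAs are cut out of introns of host genes, and exonucleases trim their ends up to the bound proteins. Not every SCARNA is of the H/ACA kind. SCARNA7 and SCARNA9 are C/D guides, which direct ribose methylation, SCARNA9L is a copy of SCARNA9, and SCARNA10 and SCARNA12 join C/D and H/ACA domains.

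Total RNA of the ovarian cancer cell line SK-OV-3 was measured on 12 Illumina bead arrays in 4 groups of 3: cells transfected with scrambled shRNA (shCTRL), the same with CDDP (cisplatin, a DNA-crosslinking drug) for 24 hours, cells transfected with shRNA against IRF-1 (shIRF-1), and the same with CDDP. The labels give no CDDP dose, no clone and no shRNA sequence, and they do not say whether replicates were separate cultures, so p-values measure the spread between arrays, which may be technical. In bulk RNA, fewer cells holding an RNA and less of it per cell cannot be told apart. Levels below are background-corrected, quantile-normalized intensities on the log2 scale. Between 18075 and 21126 probes were detected per array, and arrays of 1 group correlated at 0.97 to 0.986. The epithelial genes KRT7, KRT8, KRT19, ERBB2 and PAX8 were detected on all 12 arrays and KRT18 on 11, while CD3E, CDH5 and COL3A1 were detected on 0 arrays, PTPRC on 1, DCN on 2, PECAM1 on 3, and CD68 and COL1A1 on 12. Markers moved with the shRNA labels too. Of the 3 measured markers of other cells, 2 were lower on arrays labelled shIRF-1 without CDDP (CD68 by -0.75, limma adjusted p = 0.0288, and COL1A1 by -1.31, adjusted p = 0.00312) and 1 with CDDP (CD68 by -0.79, adjusted p = 0.0297), while the other 2 CD68 probes did not pass. Of the 6 epithelial markers 0 passed between labels, but a second probe of KRT18 was higher without and with CDDP (0.99 and 1.22) and one of PAX8 without it (0.96). CDDP lowered 3 of the 6 epithelial markers under shCTRL and 3 under shIRF-1, where 13.5% and 11% of all probes fell. They were KRT19 (-2.17 and -1.98), PAX8 (-1.53 and -1.29) and ERBB2 (-1.08 and -0.92). The other ERBB2 probe did not pass in either (-0.16 and -0.35). Another PAX8 probe fell under shIRF-1 only (-1.56), and a further one in neither (-0.38 and -0.45). The part of these shifts in the results was not tested.

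IRF1, the transcription factor targeted by the shRNA, did not follow its label in untreated cells. Arrays labelled shCTRL had IRF1 at 8.30, 8.51 and 7.84 and arrays labelled shIRF-1 at 8.59, 8.14 and 8.20, and these overlap. CDDP arrays had it at 9.97, 10.38 and 9.38 with shCTRL and at 8.94, 9.08 and 9.26 with shIRF-1, which do not overlap. The difference was 0.10 without CDDP (95% interval -0.43 to 0.62, limma adjusted p = 0.909) and -0.82 with CDDP (-1.35 to -0.29, adjusted p = 0.0868). Comparisons between shRNA groups are therefore comparisons of arrays labelled shIRF-1 with arrays labelled shCTRL.

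Detection of these probes alone already separated the shRNA labels. Of the 24 SCARNA probes, 6 to 8 were detected on a shCTRL array, 10 to 11 on a shCTRL CDDP array, 14 to 15 on an array labelled shIRF-1 and 16 to 20 on one labelled shIRF-1 CDDP. Of the 102 SNORA probes, the same groups had 30 to 39, 35 to 46, 49 to 57 and 56 to 63. The ranges do not overlap between the shRNA labels at the same treatment. Those of all probes do. Without CDDP, shCTRL arrays detected 18956 to 19161 probes and arrays labelled shIRF-1 18618 to 19900. With CDDP the numbers were 18075 to 19582 and 18595 to 21126. Without CDDP, 5 SCARNA and 9 SNORA probes were undetected on all shCTRL arrays and detected on all 3 arrays labelled shIRF-1, and 0 of either family had the reverse pattern. How many of all probes on the array had either pattern was not counted, so these counts have no background.

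**Figure D1:**
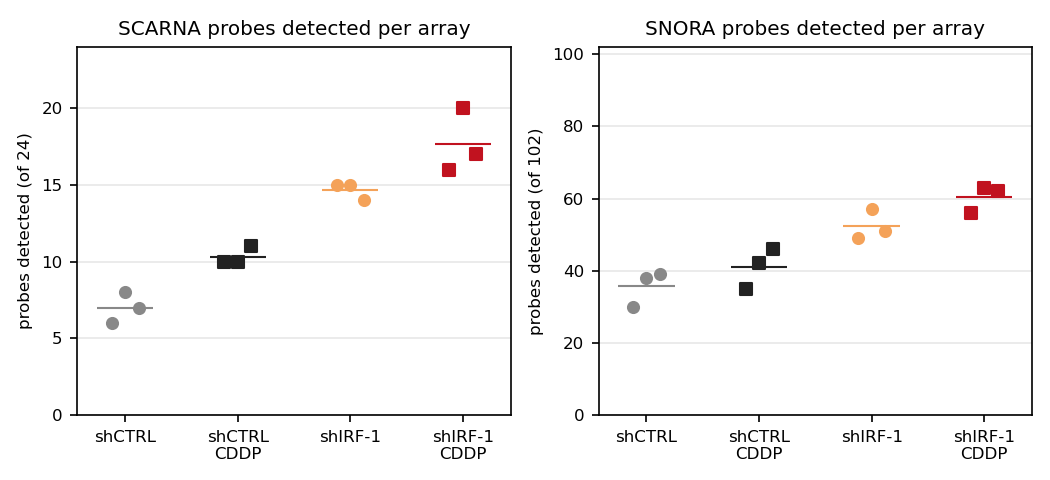
Number of SCARNA probes (left) and SNORA probes (right) detected on each array, by group. Points are arrays, the horizontal line is the mean of 3, and the y axis ends at the number of probes on the array. Arrays labelled shIRF-1 had 14 to 15 of 24 SCARNA probes without CDDP, against 6 to 8 on shCTRL arrays.

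This pattern bears on which probes were kept. Of the kept probes, 10 of 17 SCARNA and 25 of 63 SNORA would have fewer than 3 detected arrays without the 6 shIRF-1 arrays, against 0 and 6 without the 6 shCTRL arrays. Such probes passed through the group in which they were high, so their difference is in part built into the choice. At the threshold, 8 probes were detected on exactly 3 arrays (SCARNA21 and 7 SNORA, with mean levels of 4.66 to 4.85), and 8 probes just missed it on 2 arrays (SCARNA2, SCARNA27 and 6 SNORA, means of 4.60 to 4.76). Counts are therefore also given for all probes on the array and for probes detected on all 12 arrays, which include 5 SCARNA and 21 SNORA.

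Without CDDP, 8 of 17 SCARNA probes were called higher on arrays labelled shIRF-1 than on shCTRL arrays and 0 lower, where a call is a limma adjusted p under 0.05 over all 22260 probes. Of all those probes, 2.71% were called higher and 2.63% lower. With no filter on detection 7 of 24 SCARNA probes were called higher, against 1.09% of all 47313 probes, and among probes detected on all 12 arrays 3 of 5, against 2.96%. The median SCARNA difference was 0.84, or 0.75 with the 9 probes undetected on every array of a group set at their lower bound, where the median of all probes was 0. The choice of kept probes favours a positive median. With no filter on detection it was 0.50 over the 24 probes, and it was 2.78 over the 5 detected on all 12 arrays.

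The 8 are SCARNA4, SCARNA8, SCARNA11, SCARNA13, SCARNA14, SCARNA16, SCARNA18 and SCARNA23. SCARNA18 stood at 4.98, 5.37 and 5.10 on the shCTRL arrays and at 8.93, 8.85 and 8.81 on the arrays labelled shIRF-1. It was detected on all of them and differed by 3.71 on the log2 scale, or 13.1-fold (SE 0.18, limma adjusted p = 2.09e-08). SCARNA13, which carries a pair of H/ACA units in tandem, stood at 5.58, 5.91 and 6.22 against 8.76, 8.72 and 8.65. Every array labelled shIRF-1 was above every shCTRL array for both, and SCARNA13 was 6.98-fold higher (2.80, SE 0.23, adjusted p = 3.27e-06). SCARNA16 stood at 5.77, 5.57 and 5.59 against 8.42, 8.56 and 8.28, a 6.87-fold difference (2.78, SE 0.21, adjusted p = 2.47e-06).

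SCARNA8 and SCARNA11 were undetected on every shCTRL array and detected on every array labelled shIRF-1. SCARNA8 stood at 4.40, 4.40 and 4.51 on the shCTRL arrays and at 9.12, 8.07 and 8.74 on the arrays labelled shIRF-1. SCARNA11 stood at 4.57, 4.54 and 4.52 against 8.74, 8.20 and 8.82. With the lowest detected level of each shCTRL array as the floor, SCARNA8 was at least 13.3-fold and SCARNA11 at least 12.8-fold higher (limma adjusted p = 2.47e-06 and 1.23e-07). In the deposited signal before any correction, SCARNA8 read 79.6, 82.2 and 93.4 with shCTRL, and arrays labelled shIRF-1 read 494, 341 and 564. By the same bound SCARNA23 was at least 3.92-fold higher, from 4.41, 4.53 and 4.49 to 6.81, 6.84 and 6.98.

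SCARNA14, detected on 1 of 3 shCTRL arrays, stood at 4.75, 5.0 and 4.40 against 6.58, 6.45 and 6.84 (log2 1.91, SE 0.24, limma adjusted p = 0.000153). SCARNA4 was the smallest of the 8, at least 1.43-fold higher, with an adjusted p of 0.0474. That call was lost in 13 of 22 alternative settings, with adjusted p from 0.0211 to 0.192.

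The other 9 SCARNA probes did not pass. They hold both C/D guides, SCARNA9 with a difference of 0.16 and SCARNA7, undetected on every shCTRL array, at least 1.23-fold higher. Both mixed guides are among them, with 0.75 for SCARNA12 and -0.39 for SCARNA10, whose arrays labelled shIRF-1 (6.67, 6.57 and 6.58) all lay below the shCTRL arrays (6.79, 7.22 and 6.96). They also hold 4 H/ACA guides, SCARNA22 with a difference of 0.84, SCARNA1, undetected on every shCTRL array, at least 1.07-fold higher, and SCARNA21 and SCARNA20, also undetected there and without a fold above their floor. The copy SCARNA9L was undetected on every array labelled shIRF-1 and has no fold either. Of the single H/ACA guides 7 of 11 were called, of the tandem guide 1 of 1, of the C/D guides 0 of 2, of the copy 0 of 1 and of the mixed guides 0 of 2. The same numbers held with CDDP. This is a description of few probes with no test of the difference between the kinds, and the H/ACA guides are also the shorter RNAs, 125 to 187 bases for the single ones against 270 to 353 for the C/D and mixed ones.

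**Figure D2:**
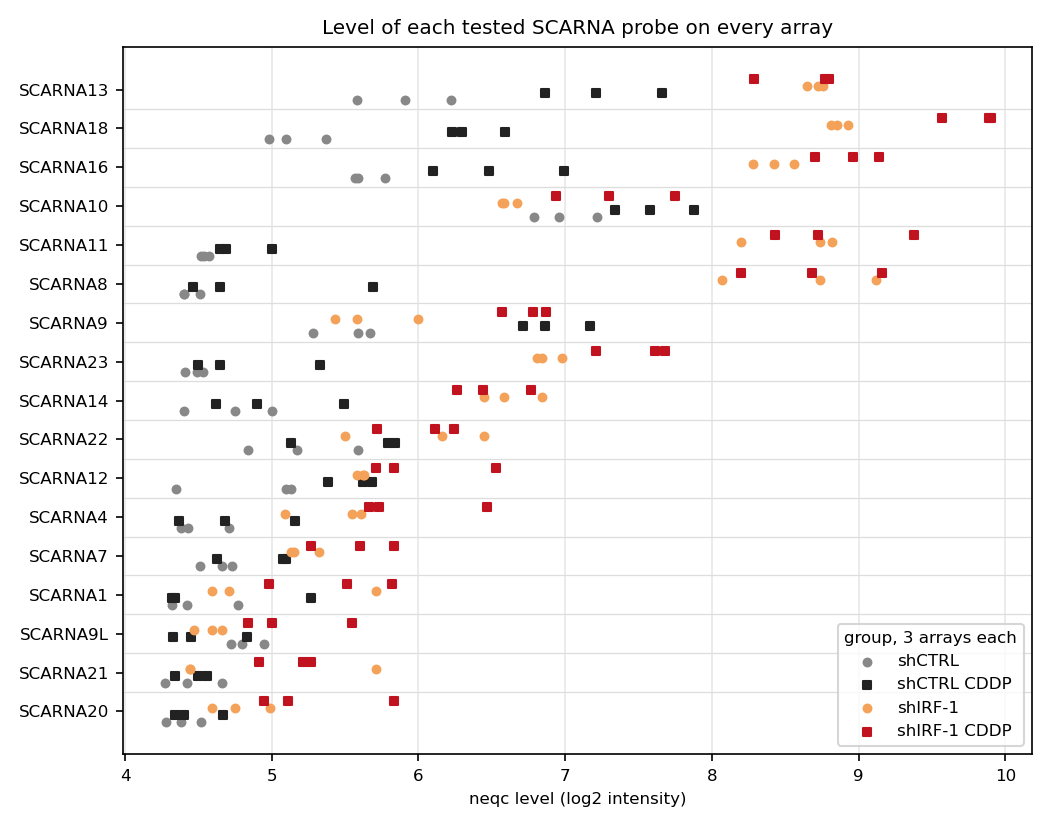
Level of each of the 17 SCARNA probes on every array (x axis, log2 intensity after neqc normalization), ordered by the mean over 12 arrays. Each point is 1 array, coloured by group. SCARNA8 and SCARNA11 sit near 4.5 on shCTRL arrays and above 8 on arrays labelled shIRF-1, while SCARNA9 separates by CDDP and overlaps between the shRNA labels.

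Among the SNORA probes, 16 of 63 were called higher on arrays labelled shIRF-1 without CDDP and 0 lower, against 2.71% and 2.63% of all probes. With no filter on detection there were 11 of 102, and among probes detected on all 12 arrays 7 of 21, against the 1.09% and 2.96% of all probes given above. The median of the 63 was 0.28, or 0.19 with bounds. It was 0.14 over the 102 with no filter and 0.38 over the 21 detected on all 12 arrays. Without shIRF-1 array 2, 10 of the 63 were called.

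The leading SNORA was SNORA79, at 4.45, 4.65 and 4.83 on the shCTRL arrays, all undetected, and 7.86, 7.84 and 7.79 on the arrays labelled shIRF-1. It was at least 7.61-fold higher (limma adjusted p = 2.81e-06). SNORA63 stood at 6.12, 6.13 and 6.29 against 9.08, 9.16 and 8.62 and differed 6.82-fold (log2 2.77, SE 0.21, adjusted p = 1.92e-06). For both, the lowest array labelled shIRF-1 was over 2 log2 units above the highest shCTRL array. SNORA28 stood at 5.04, 5.63 and 5.27 against 7.36, 7.32 and 7.03 (1.93, SE 0.26, adjusted p = 0.000339). SNORA4, detected on 1 of 3 shCTRL arrays, stood at 4.50, 4.57 and 4.99 against 6.04, 6.82 and 6.75 (1.85, SE 0.25, adjusted p = 0.000304).

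SNORA74B, undetected on every shCTRL array, was at least 2.34-fold higher, and SNORA38B and SNORA13, also undetected there, at least 2.07-fold and 2.06-fold. SNORA80A differed by 1.55 (SE 0.32), SNORA7B by 1.27 (SE 0.20), and SNORA21 and SNORA27 by 1.19 each. Both probes of SNORA73B were called, at 1.34 (SE 0.30) and 0.95 (SE 0.26). SNORA73B, also known as U17, takes part in the processing of the 18S ribosomal RNA precursor rather than in pseudouridylation. The calls nearest the threshold were SNORA67 (0.87), SNORA7A (0.74) and SNORA80E (0.74), with limma adjusted p from 0.0347 to 0.0494, and they were lost in 8 of 23, 16 of 22 and 15 of 22 alternative settings. SNORA73A and SNORA73B, SNORA7A and SNORA7B, and the copies SNORA3A and SNORA3B, SNORA59A and SNORA59B, and SCARNA9 and SCARNA9L are near-identical pairs whose probes may share targets, so which copy a probe read is uncertain.

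With CDDP in both groups, the comparison of shRNA labels rests on the means of the other 6 arrays. The normalization, the filter and the estimate of the spread are shared over all 12, so the 2 lists of calls are not independent. It called 8 of 17 SCARNA probes higher and 0 lower, against 1.53% and 2.04% of all probes, and 15 of 63 SNORA probes higher and 0 lower. With no filter on detection, 8 of 24 and 15 of 102 were called higher, against 0.63%, and among probes detected on all 12 arrays 3 of 5 and 5 of 21, against 1.62%. The 8 SCARNA probes are the same as without CDDP, 100% of each list. Of the SNORA calls 12 were shared, 75% of those without CDDP and 80% of those with it.

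SCARNA18 stood at 6.23, 6.30 and 6.59 on the shCTRL CDDP arrays and at 9.90, 9.57 and 9.89 on those labelled shIRF-1 CDDP (log2 3.42, SE 0.18, limma adjusted p = 1.09e-07). SCARNA11, detected on 1 of 3 shCTRL CDDP arrays, stood at 5.0, 4.69 and 4.65 against 9.38, 8.43 and 8.72 (4.06, SE 0.24). SCARNA8 stood at 4.65, 4.46 and 5.69 against 9.16, 8.20 and 8.68 (3.75, SE 0.33). No array of 1 group reached those of the other in these 3. SCARNA23 differed by 2.67 (SE 0.21), SCARNA16 by 2.41 (SE 0.21), SCARNA14 by 1.49 (SE 0.24), SCARNA13 by 1.38 (SE 0.23) and SCARNA4 by 1.22 (SE 0.25). Of the SNORA guides, SNORA79 differed by 2.94 (SE 0.25) and SNORA63 by 2.56 (SE 0.21). Among guides detected on at least 1 shCTRL CDDP array, SNORA4, SNORA28, SNORA80A, SNORA38B and SNORA21 were next, at 2.18, 2.12, 1.92, 1.86 and 1.70. SNORA13 and SNORA80E, undetected on every shCTRL CDDP array, were at least 2.96-fold and 2.40-fold higher. SNORA2B (1.45), SNORA48 (1.26) and SNORA23 (1.15) were called with CDDP and not without it, where no shCTRL array detected them and they were at least 1.37-fold, 1.44-fold and 1.44-fold higher (limma's test of the change in difference gave adjusted p over 0.05 for every guide, as described below).

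**Figure D3:**
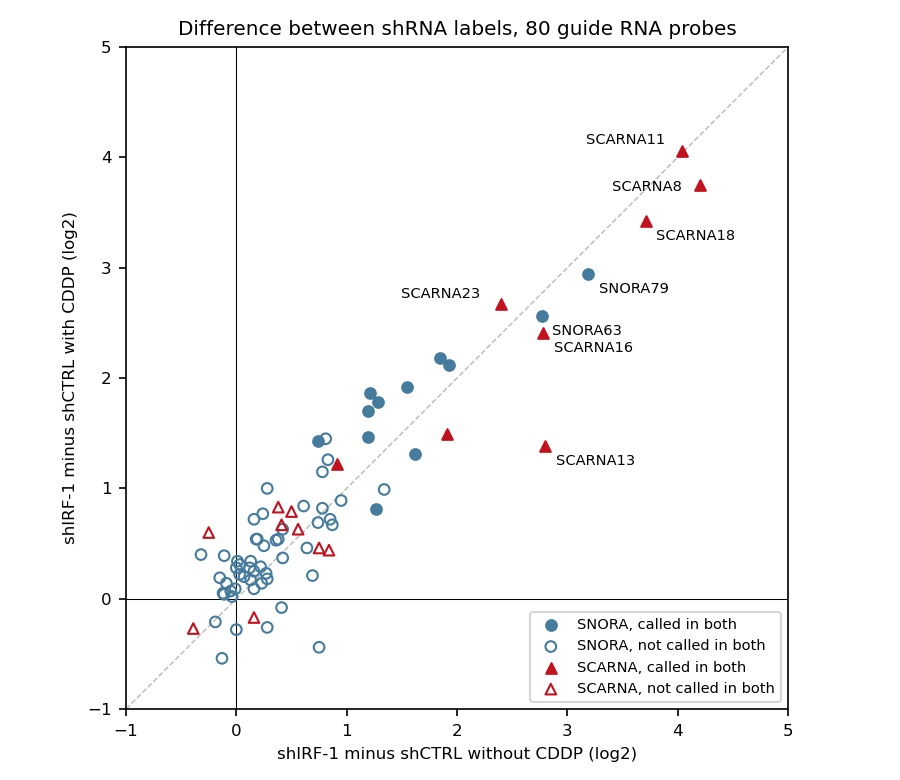
Difference between arrays labelled shIRF-1 and shCTRL for the 80 guide RNA probes, without CDDP (x axis) and with CDDP (y axis), in log2. Triangles are SCARNA and circles SNORA, filled where called in both. The 2 axes share no array, but they share the normalization, the filter and the estimate of the spread. The dashed line marks equal differences, and for probes undetected in 1 group the fitted difference is drawn and not its bound. The 8 filled triangles are the SCARNA probes called in both.

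Guide RNAs of this kind are processed from host transcripts, so each probe was set beside the genes whose RefSeq span holds it. Of the 80 probes 66 lie in 1 gene, 13 in several and 1 in none, and 58 of the 73 distinct genes were measured above the filter. The table used gives no strand, so a gene on the opposite strand can be among them. Where a guide was called higher on arrays labelled shIRF-1, no measured gene holding it was called. Some holding genes were not measured. SNHG20, which also holds SCARNA16, and SNHG3, which also holds SNORA73B, did not pass the filter, and CHD4-AS1, which also holds SCARNA11, has no probe. Without CDDP the called SCARNA probes lie in 8 measured genes and the called SNORA probes in 15, of which 0 and 0 were called in either direction, with host differences of -0.76 to 0.18 and -0.67 to 0.46. With CDDP the counts were 0 of 8 and 0 of 15, with -0.54 to 0.54 and -0.69 to 0.51. The background for a call in either direction was 5.34% without CDDP and 3.57% with it. Among so few genes, 0 calls is near that share. Some hosts of guides that were not called did differ. Without CDDP, KPNA4 (-0.67), SNHG7 (-0.87), SNHG17 (-0.82) and LBHD1 (-0.94) were called lower on arrays labelled shIRF-1, and with CDDP SNHG12 (-0.77) was.

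HAUS6, a subunit of the augmin complex of the spindle, holds SCARNA8 and differed by 0.15 (SE 0.24) without CDDP. TMEM167A, which holds SCARNA18, differed by 0.18 (adjusted p = 0.746), and CHD4, a chromatin remodeler whose span holds SCARNA11, by 0.11 (adjusted p = 0.875). SNHG10, which holds SCARNA13, differed by -0.08. EIF4A2, a translation initiation helicase, holds both SNORA63 and SNORA4 and differed by -0.09 (adjusted p = 0.87), beside guide differences of 2.77 and 1.85. GTF2A1, a general transcription factor subunit that holds SNORA79, differed by 0.31 (adjusted p = 0.595).

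**Figure D4:**
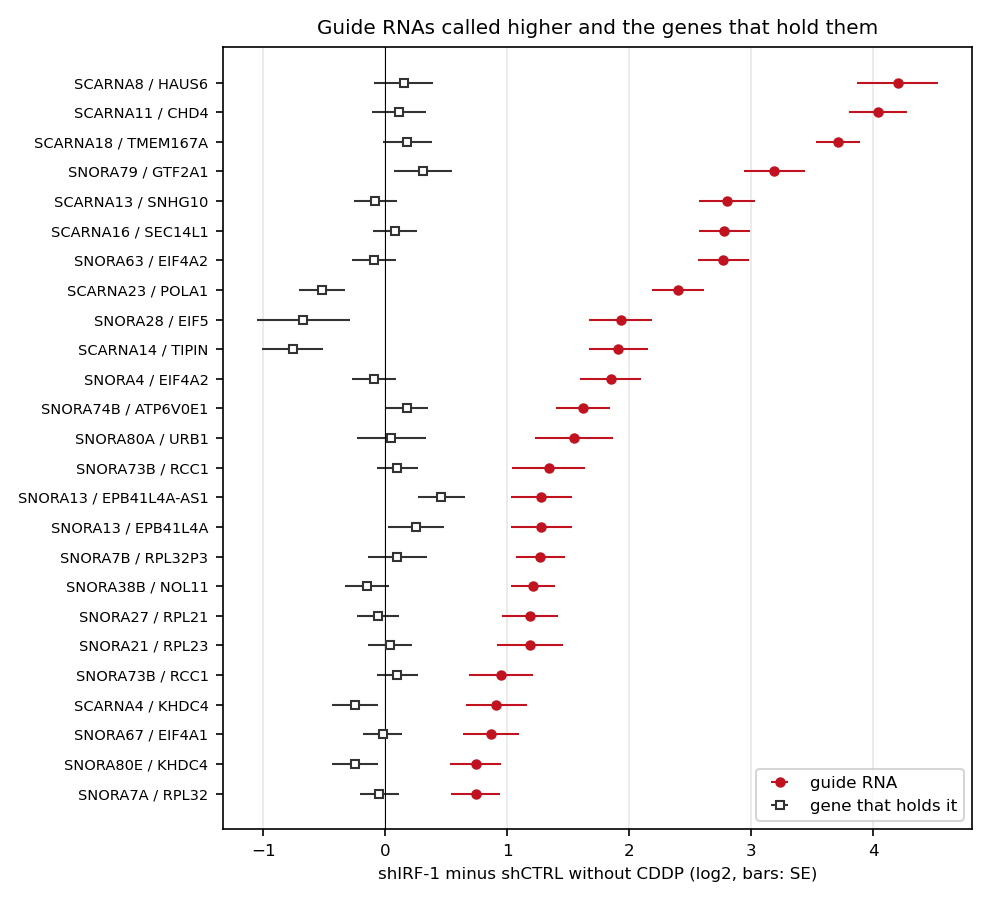
Difference between arrays labelled shIRF-1 and shCTRL without CDDP (x axis, log2, bars are SE) for each guide RNA called higher (filled circles) and each measured gene whose span holds it (open squares). For guides undetected in 1 group the fitted difference is drawn and not its bound. Host differences lie between -0.76 and 0.46 throughout, and every guide lies to the right of its host. Only guides called higher are drawn, so their place is in part set by that choice.

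The promoters of hosts are shown because the promoter of an intronic guide's host generally also drives the RNA from which the guide is cut. Whether that holds for the genes below, named as hosts by their span alone, was not tested. The 3 hosts HAUS6, TMEM167A and EIF4A2 hold leading guides, and CWF19L1 holds SNORA12, whose values are described below. Each sequence is the 250 bases before the gene's start in RefSeq, build GRCh38.p14, in the direction of the gene. Capitals mark a match to GAAA, any 2 bases and GAAA again, a spacing found in interferon-stimulated response elements, which IRF family proteins bind. Both strands were searched, and overlapping matches were counted once per promoter.
HAUS6, chr9:19102905-19103154, minus strand: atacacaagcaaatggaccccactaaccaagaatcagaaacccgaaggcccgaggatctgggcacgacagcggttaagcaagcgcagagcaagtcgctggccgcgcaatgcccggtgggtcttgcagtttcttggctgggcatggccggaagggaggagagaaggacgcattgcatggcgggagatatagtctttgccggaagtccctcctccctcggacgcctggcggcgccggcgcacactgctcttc
TMEM167A, chr5:83077395-83077644, minus strand: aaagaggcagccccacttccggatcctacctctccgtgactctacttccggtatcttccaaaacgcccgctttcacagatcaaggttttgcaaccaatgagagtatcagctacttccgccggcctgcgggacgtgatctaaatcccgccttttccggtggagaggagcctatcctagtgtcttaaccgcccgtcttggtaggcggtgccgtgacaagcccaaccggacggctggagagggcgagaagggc
EIF4A2, chr3:186783327-186783576, plus strand: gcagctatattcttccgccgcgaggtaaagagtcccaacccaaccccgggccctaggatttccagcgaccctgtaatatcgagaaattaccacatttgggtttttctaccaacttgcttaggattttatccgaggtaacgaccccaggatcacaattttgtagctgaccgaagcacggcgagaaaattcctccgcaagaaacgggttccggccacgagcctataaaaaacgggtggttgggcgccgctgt
CWF19L1, chr10:100267639-100267888, minus strand: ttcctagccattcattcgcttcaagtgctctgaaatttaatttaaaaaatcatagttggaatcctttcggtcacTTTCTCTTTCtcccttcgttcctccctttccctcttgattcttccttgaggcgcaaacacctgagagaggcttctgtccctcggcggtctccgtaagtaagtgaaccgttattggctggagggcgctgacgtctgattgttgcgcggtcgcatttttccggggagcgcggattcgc
The match in CWF19L1 lies on the opposite strand and starts 176 bases before the gene's start. Of 64 promoters listed for 50 hosts, 2 hold the letters (CWF19L1 and RPS12, which holds SNORA33), against 1061 of 35116 promoters in all, or 3.02%. A match is a description of letters and not a bound site.

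CDDP changed a larger share of all probes than the shRNA labels did, 26.3% under shCTRL and 21.2% under shIRF-1 in either direction, and the guide RNAs are read against that. Under shCTRL, 6 of 17 SCARNA probes rose and 0 fell, and 9 of 63 SNORA probes rose and 1 fell, where 12.8% of all probes rose and 13.5% fell. The SNORA share is near that of all probes. The 5 SCARNA probes detected on all 12 arrays all rose, as did 6 of 21 such SNORA probes, against 16.8% of all such probes. With no filter on detection 5 of 24 and 5 of 102 rose, against 5.58%. The SCARNA median was 0.35, and 0.08 with 7 probes at their bound. It was 0.26 over the 24 with no filter and 1.22 over the 5 detected on all 12 arrays. The SNORA count of 10 calls fell to 3 without shCTRL array 1, to 4 without shCTRL CDDP array 3 and to 6 without shCTRL CDDP array 2.

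SCARNA9, a C/D guide that was not called between shRNA labels, stood at 5.59, 5.67 and 5.28 without CDDP and at 7.17, 6.86 and 6.71 with it under shCTRL. It rose 2.64-fold (log2 1.40, SE 0.20, limma adjusted p = 0.0001). SCARNA13 rose by 1.34 (SE 0.23), from the 5.58, 5.91 and 6.22 given above to 6.86, 7.21 and 7.66, and SCARNA18 by 1.22 (SE 0.18). SCARNA16 rose by 0.88 (SE 0.21), and the mixed guides SCARNA12 and SCARNA10 by 0.70 and 0.61. Those of SCARNA12 (adjusted p = 0.0446) and SCARNA10 (adjusted p = 0.0492) were lost in 15 of 22 and 12 of 23 alternative settings, with adjusted p up to 0.223 and 0.267.

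SNORA7B rose most among the SNORA probes, from 6.07, 6.17 and 6.28 to 7.26, 7.57 and 7.39 (log2 1.23, SE 0.20, limma adjusted p = 0.000275). SNORA23, undetected on every shCTRL array, rose at least 1.72-fold. SNORA65 rose by 0.98, SNORA12 by 0.92, SNORA25 by 0.91, SNORA61 by 0.80, SNORA28 by 0.74, SNORA6 by 0.62 and SNORA8 by 0.61. SNORA59A was the 1 that fell, at least 1.40-fold, since no shCTRL CDDP array detected it. Its call was lost in 18 of 22 alternative settings, with adjusted p from 0.0373 to 0.246.

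Under shIRF-1, CDDP raised 4 of 17 SCARNA and 12 of 63 SNORA probes and lowered 0 and 0, where 10.2% of all probes rose and 11% fell. Among probes detected on all 12 arrays 3 of 5 and 5 of 21 rose, against 13.7%, and with no filter 3 of 24 and 11 of 102, against 4.26%. SCARNA9 stood at 5.58, 5.43 and 6.0 without CDDP and 6.78, 6.87 and 6.57 with it (log2 1.07, SE 0.20, limma adjusted p = 0.00118). SCARNA18 rose by 0.93 (SE 0.18), SCARNA10 by 0.73 and SCARNA23 by 0.62. The last had an adjusted p of 0.0489 and was lost in 12 of 22 alternative settings. The SCARNA count was 2 without shIRF-1 CDDP array 1, shIRF-1 array 2 or shIRF-1 array 3, and the SNORA count was 6 without shIRF-1 array 1 and 5 without shIRF-1 CDDP array 1.

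The largest SNORA rise under shIRF-1 was that of SNORA61, from 6.52, 7.23 and 7.60 to 8.61, 8.56 and 8.71 (log2 1.51, SE 0.25, limma adjusted p = 0.000476). It was followed by SNORA23 (1.41), SNORA65 (1.31), SNORA2B (1.28), SNORA33 (1.05), SNORA28 (0.93), SNORA21 (0.82) and SNORA27 (0.80). SNORA17A, SNORA7B, SNORA38B and SNORA18 rose by 0.79, 0.77, 0.64 and 0.62. Calls shared by both CDDP comparisons were those of 3 SCARNA probes, 50% of the list under shCTRL and 75% of that under shIRF-1, and of 5 SNORA probes, 55.6% and 41.7%.

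Hosts of the guides that CDDP raised were called in both directions, and most were not called. Under shCTRL, of 6 measured hosts of raised SCARNA probes 1 rose (SNHG10) and 1 fell (NCAPD2, a condensin subunit, which holds SCARNA10, at -0.89), and of 7 hosts of raised SNORA probes 2 rose, where 12.8% of all probes rose and 13.5% fell. Under shIRF-1, of 4 SCARNA hosts 0 rose and 1 fell (POLA1, a DNA polymerase subunit that holds SCARNA23, at -1.07), and of 12 SNORA hosts 4 rose, where 10.2% of all probes rose and 11% fell. SNHG12, which holds SNORA61, rose by 1.75 and 1.24 under shCTRL and shIRF-1.

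Some hosts that CDDP raised hold several guides, whose calls are given side by side with no test between guides. TAF1D, a subunit of the RNA polymerase I factor SL1, holds 5 measured guides and rose by 1.13 under shCTRL and 0.87 under shIRF-1 (limma adjusted p = 0.00187 and 0.0128). Of its guides SNORA25 and SNORA8 were called under shCTRL and SNORA18 under shIRF-1, while SNORA32 was not called, at 0.44 and 0.56. SNORA1 was undetected on every shCTRL array, so its response there was not measured, and it differed by 0.02 under shIRF-1. EIF4A2 rose by 0.99 and 0.56 (adjusted p = 0.000679 and 0.0333), and neither of its guides was called, with 0.50 and 0.29 for SNORA63 and 0.14 and 0.47 for SNORA4. KANSL2 rose by 1.02 and 1.04. Its guide SNORA2B, undetected on every shCTRL array, was at least 1.22-fold higher with CDDP under shCTRL, which was not called, and rose by 1.28 under shIRF-1. SNORA2C, undetected on every shCTRL CDDP array, has no measured response under shCTRL and differed by 0.10 under shIRF-1, not called.

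**Figure D5:**
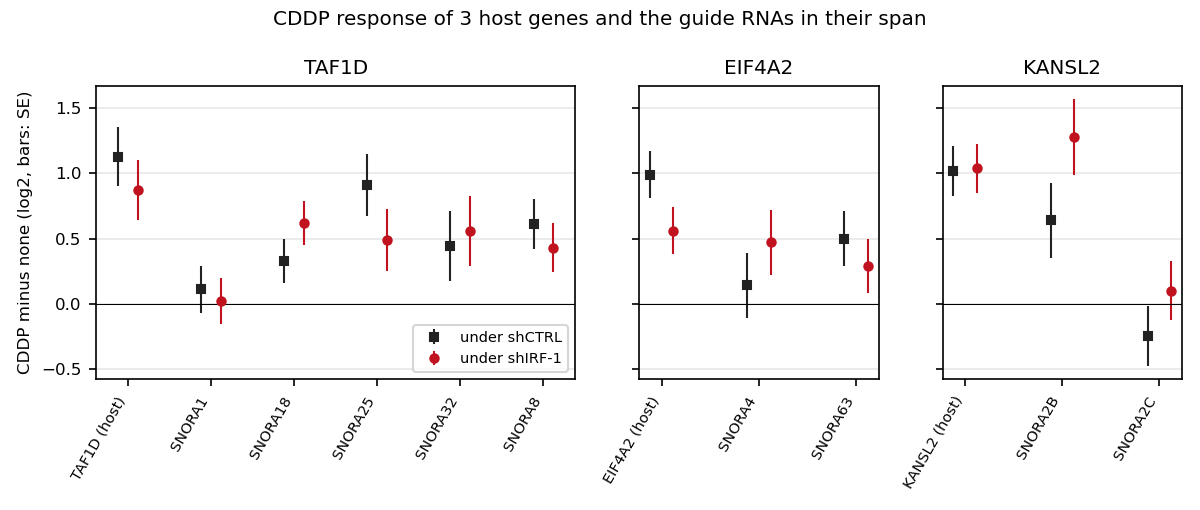
CDDP minus none (y axis, log2, bars are SE) under shCTRL (black squares) and shIRF-1 (red circles) for TAF1D, EIF4A2 and KANSL2, each at the left of its panel, and for the guide RNAs in their span. The fitted difference is drawn also for SNORA1, SNORA2B and SNORA2C, which were undetected in 1 group under shCTRL. TAF1D rose by 1.13 and 0.87.

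The change in the CDDP response between shRNA labels was tested as an interaction. It called 0 of 17 SCARNA and 0 of 63 SNORA probes by limma, where 0.0809% of all probes were called, and 2 and 3 had an unadjusted p under 0.05. SCARNA13 had the lowest of these (-1.43, 95% interval -2.12 to -0.74, limma adjusted p = 0.179). It rose with CDDP under shCTRL and stood at 8.76, 8.72 and 8.65 without and 8.80, 8.29 and 8.77 with CDDP under shIRF-1. The others were SNORA12 (-1.19), SCARNA9L (0.84), SNORA80E (0.69) and SNORA38B (0.65), with limma adjusted p from 0.419 to 0.592, and the last 3 were undetected on every array of a group.

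The proteins that bind, assemble and trim these RNAs were read from lists of genes. DKC1, NHP2, NOP10 and GAR1, the 4 H/ACA core proteins, were not called between shRNA labels in either arm, with differences of -0.34, 0.05, -0.38 and -0.13 without CDDP and -0.04, -0.24, -0.11 and 0.11 with it. The only call among them was NOP10, higher with CDDP under shIRF-1 (0.56, SE 0.16, limma adjusted p = 0.0186), and its other probe did not pass (0.52, adjusted p = 0.0542). Of all probes 10.2% rose in that comparison. Of 5 assembly genes 0 were called between shRNA labels. RUVBL1, an ATPase of the complex that assembles these particles, fell with CDDP under shCTRL (-0.76, limma adjusted p = 0.0353), where 13.5% of all probes fell. Between shRNA labels 5.34% of all probes were called without CDDP and 3.57% with it. Among so few core and assembly genes, 0 calls is near that share.

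Of 14 measured Cajal body genes 0 were called between shRNA labels without or with CDDP, where 5.34% and 3.57% of all probes were called. Among 14 genes, 0 calls is near that share. CDDP under shCTRL raised 5 and lowered 1, against 12.8% and 13.5% of all probes. NOLC1, which shuttles between nucleolus and Cajal bodies, rose by 1.76 (SE 0.25), USPL1 by 1.19, PHAX, an export adaptor of small nuclear RNAs, by 0.66 (its other 2 probes did not pass, at 0.55 and -0.11), and SART3 and ZC3H8 by 0.63 each. SMN2, a near-identical copy of SMN1, fell by 1.01 and was not called under shIRF-1 (-0.27). No probe of SMN1 itself was called with CDDP under shCTRL (-0.37, -0.26 and -0.24). Under shIRF-1, NOLC1 (1.49), ZC3H8 (0.89) and USPL1 (0.69) rose, against 10.2% of all probes.

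Of 25 measured genes of 3′ end trimming and RNA decay, 2 were lower on arrays labelled shIRF-1 in each arm and 0 higher, where 2.63% of all probes were lower without CDDP and 2.04% with it. PARN, a poly(A)-specific ribonuclease that removes short A tails from the ends of H/ACA RNAs, stood at 8.91, 9.07 and 8.95 on shCTRL arrays and at 7.23, 7.73 and 7.71 on arrays labelled shIRF-1 (log2 -1.42, SE 0.25, limma adjusted p = 0.00242). With CDDP it stood at 6.58, 6.23 and 7.12 against 4.97, 5.60 and 5.69 (-1.22, SE 0.25, adjusted p = 0.0111). Its groups did not overlap in either arm, and its part in the levels of the guide RNAs was not tested. The other calls were the exosome subunits EXOSC3 without CDDP (-1.06, adjusted p = 0.000569) and EXOSC8 with it (-0.95, adjusted p = 0.0269).

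CDDP lowered PARN as well, by -2.33 under shCTRL and -2.13 under shIRF-1 (SE 0.25 each, limma adjusted p = 6.11e-06 and 1.98e-05). It raised 3 and lowered 6 of the 25 genes of this list under shCTRL, against 12.8% and 13.5% of all probes, so the share that rose is near that of all probes. TOE1, another 3′ trimming enzyme (0.73), ZCCHC8 (0.78) and EXOSC1 (0.54) rose, and ZCCHC7 (-1.41), MTREX, the helicase that feeds the exosome (-1.13), XRN1 (-0.96), PABPN1 (-0.93) and EXOSC3 (-0.61, with its other probe not passing at -0.28) fell beside PARN. Under shIRF-1, TOE1 (0.85) and ZCCHC8 (0.62) rose and MTREX (-1.08), ZCCHC7 (-1.06) and XRN1 (-1.05) fell beside PARN, against 10.2% and 11% of all probes. DBR1, which opens the intron lariats from which guides are released, rose by 1.36 and 0.90 with CDDP and differed by -0.06 and -0.52 between shRNA labels, neither called.

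Counts for other RNAs without long poly(A) tails are given beside those of the guides. Of 60 measured C/D snoRNA probes (SNORD), 5 were higher and 1 lower on arrays labelled shIRF-1 without CDDP and 2 and 0 with it, with medians of 0.05 and 0, where 2.71% and 1.53% of all probes were higher. CDDP raised 18 and 15 of the 60 and lowered 0 and 4, where 12.8% and 10.2% of all probes rose. Of 12 spliceosomal RNA probes (RNU) 1 was higher between shRNA labels in each arm, and CDDP raised 8 and 6. Of 32 replication-dependent histone probes 11 were higher between labels without CDDP and 3 with it, and 0 lower in either, with medians of 0.62 and 0.46. The histone probes thus had calls in 1 direction between labels, as the SNORA probes did. Array means over each class without CDDP did not overlap between the labels in any of the classes. For shCTRL arrays and arrays labelled shIRF-1 they were 5.36 to 5.43 and 5.49 to 5.65 over SNORD, 5.57 to 5.68 and 6.03 to 6.09 over RNU, and 5.98 to 6.14 and 6.64 to 6.81 over histone probes. With CDDP the labels overlapped over SNORD (5.88 to 5.94 and 5.88 to 6.01) and RNU (6.72 to 6.90 and 6.78 to 7.23). They did not over histone probes (6.39 to 6.83 and 6.94 to 7.20). These means are over kept probes. Without CDDP, the means over the 17 kept SCARNA probes were 4.93 to 5.05 and 6.36 to 6.61. Those over the 63 kept SNORA probes were 5.2 to 5.35 and 5.77 to 5.9. With no filter on detection they were 4.81 to 4.89 and 5.85 to 6.02 over the 24 SCARNA probes. Over the 102 SNORA probes they were then 4.93 to 5.02 and 5.27 to 5.37. These classes were compared by their own counts, with no test between them. The arrays' labelling amplifies RNA with a kit for messenger RNA, per the labels, and which form of a guide RNA, mature or still in a longer precursor, a probe read was not tested.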

How the data were processed

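Intensities per probe (average bead signal, not normalized) and a detection p-value per probe and array were deposited by the authors, who used BeadStudio 2 per the submitters' processing notes. A deposited table of processed intensities was an alternative: its values correlated at 1 with the signal on each array, their medians were 116 to 132, and its scaling is not stated. Biotin-labelled cRNA was made with a messenger RNA amplification kit, per the labels. Symbols came from the platform annotation, where 30109 of 47313 probes had 1 symbol, 8 several and 17196 none.

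The neqc function of limma 3.58.1 (R 4.3.3) was applied to the signals: normexp background correction, with the negative controls inferred from detection p-values, then an offset of 16, quantile normalization and log2. All 12 arrays entered 1 linear model of group means (lmFit, eBayes), which left 8 residual degrees of freedom beside 7.19 prior ones. Two-sided p-values were adjusted by Benjamini-Hochberg over all 22260 probes, each probe on its own, and called under 0.05. The fit was tested on simulated data. Intervals are 95%. The number of arrays limits the precision.

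A probe undetected on every array of a group has only a bound there, and its fold is given as at least the bright group's mean over the higher, per array, of the lowest detected level and the probe's own. For a gene of a list or a host with several probes, the probe with the highest mean over 12 arrays is given. Host genes are those whose RefSeq span holds the guide. The same strand had been planned as a condition and could not be applied. Guide RNA sequences were not used here.

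Named were IRF1, all SCARNA probes, SNORA probes called in any comparison, the core proteins, every called list gene, and hosts of guides given with values. The members and lists were chosen with earlier results of these data known. Alternatives changed the background correction, offset, scaling, table, detection filter, arrays in the fit, replicate block, variance trend, array weights and probe choice, or left out each array in turn.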

Additional observations from a re-analysis of the deposited data

Results flagged for a closer look

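SNORA12 was singled out because its CDDP arrays all lay above the untreated mean under shCTRL and all below it under shIRF-1. Only the rise under shCTRL was called. The choice used these same values, so the size of the difference between responses and its interval are in part set by it. Under shCTRL it stood at 7.81, 8.64 and 8.75 without CDDP and at 8.90, 9.42 and 9.64 with it, a rise of 0.92 (limma adjusted p = 0.0143), and the groups did not overlap. Under shIRF-1 it stood at 8.85, 9.19 and 9.41 without CDDP and at 8.83, 8.93 and 8.86 with it, a difference of -0.28 (adjusted p = 0.512), where each CDDP array was below the mean of the untreated arrays and the groups overlapped. The difference between the responses was -1.19 (SE 0.36, 95% interval -1.96 to -0.43, limma adjusted p = 0.419), so it did not pass after adjustment over all probes. Its host CWF19L1 differed by -0.25 and -0.23 with CDDP under shCTRL and shIRF-1, neither called.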

How the results depend on the processing

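The 10 counts of called SCARNA and SNORA probes and 79 called differences of single probes were recomputed under each alternative. Of 1762 alternative values of the single probes 1507 kept their call and direction, 255 lost the call and 0 reversed, and 45 of the 79 kept their call under every alternative that gave a value. Detection at 0.01 on all 12 arrays, which tests fewer probes, gave 2 SCARNA calls between shRNA labels without CDDP and 2 with it, and 5 and 3 SNORA calls. It gave 5 SNORA calls for CDDP under shCTRL, and 2 SCARNA and 4 SNORA calls under shIRF-1. Median scaling gave 3 SCARNA and 2 SNORA calls for CDDP under shCTRL and 2 and 5 under shIRF-1, and the cause was not tested. No background correction, an offset of 50 and the deposited processed table each gave 6 SNORA calls for CDDP under shCTRL, and no detection filter gave 5. Leaving out 1 array at a time gave 7 to 8 SCARNA and 10 to 16 SNORA calls between shRNA labels without CDDP, 7 to 9 and 12 to 16 with it, 4 to 6 and 3 to 11 for CDDP under shCTRL, 2 to 4 and 5 to 15 for CDDP under shIRF-1, and 0 and 0 for the interaction. Over all probes, median scaling called 567, 352, 3700, 2671 and 6 in the 5 comparisons against 1189, 795, 5850, 4711 and 18, and no scaling moved the median of all probes by more than 0.07.

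The labels number the replicates alike in each group. Deviations of same-numbered arrays from their group means correlated at -0.0138 to 0.224, with 10 of 18 pairs over 0.1, against -0.223 to 0.104 and 1 of 36 for arrays of different numbers, and 10 of 12 arrays were closest to their own number. This is a hint of pairing from the data and not from the design, and the arrays were not treated as paired because 8 pairs were not over 0.1. With the replicate number as a block, 7 SCARNA and 16 SNORA probes were called between shRNA labels without CDDP, 9 and 15 with it, 5 and 10 for CDDP under shCTRL, 6 and 18 under shIRF-1 against 4 and 12 without the block, and 0 and 0 for the interaction. Signal over background limits the weakest probes: levels under about 5 are near the lowest detected level of an array, 4.78 to 4.99, and differences between them are not measured on both sides.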
